A study of Mus musculus with 7 samples.

Results

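The 10 genes described here, Atf4, Ddit3, Trib3, Chac1, Sesn2, Asns, Phgdh, Psat1, Mthfd2 and Aldh1l2, are core genes of the ATF4 arm of the integrated stress response. They were taken by symbol from a table of 40873 genes, and all 10 were found. Transcripts were counted by poly(A) RNA sequencing in lateral ventricle choroid plexus, the epithelial tissue that secretes cerebrospinal fluid. Wild-type CD-1 mouse embryos, an outbred stock, had received washed red blood cells from a donor litter at E14.5 (3 libraries) or saline (4 libraries), and tissue was pooled at E15.5, 24 h later. The labels do not say how many embryos or litters stand behind a pool, so test values measure the spread between these libraries.

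In the integrated stress response, one of the kinases PERK, PKR, GCN2 or HRI phosphorylates the translation factor eIF2 during endoplasmic reticulum stress, viral RNA, amino acid shortage or heme shortage. Overall protein synthesis then drops, while translation of the Atf4 message increases through upstream open reading frames, so that ATF4 protein can change with little change of its mRNA. ATF4 binds composite ATF and C/EBP elements and raises genes of amino acid import, amino acid synthesis, folate metabolism and, with CHOP (the product of Ddit3), cell death. The transcripts of its targets are therefore the usual mRNA readout of the pathway.

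None of the 10 genes passed the test for a difference between red blood cells and saline. Of the 10, 9 had enough counts to be tested, and 0 of these 9 had an adjusted p below 0.05 in edgeR's quasi-likelihood test, where 0.0605% of the 14869 genes tested had one. The count was also 0 with DESeq2 and with limma-voom, and 0 of the 9 had an unadjusted p below 0.05, where 9.54% of all genes tested had one. The 95% interval of the fold change included no change for each of the 9. It excluded a rise of 1.5-fold or more for 5 of them (Atf4, Sesn2, Asns, Psat1 and Phgdh) and of 2-fold or more for 8, Trib3 being the exception.

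ATF4 reads its targets through a short composite element, which some of the 10 genes carry near their start. The element was searched as TGATGNAA on both strands in the RefSeq promoter windows of GRCm38.p6, which hold 250 bases before and 50 bases after each start. Entries were found for 9 of the 10 genes, Aldh1l2 being the exception. Of the 9, 3 (Chac1, Asns and Trib3) held a match, against 4.51% of all 27025 symbols with a window. Counted by window, 3.97% of all 32851 windows held a match. These 3 stretches are shown because they hold the element, written along the gene's own strand from 5′ to 3′ with the element in capitals.
Chac1, chr2:119351023-119351082, plus strand: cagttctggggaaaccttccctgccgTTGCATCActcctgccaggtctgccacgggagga
Asns, chr6:7693210-7693258, minus strand: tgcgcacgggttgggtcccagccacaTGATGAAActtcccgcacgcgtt
Trib3, chr2:152344028-152344057, minus strand: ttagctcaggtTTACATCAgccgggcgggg
The element lies in reverse orientation in Chac1 and Trib3 and in the gene's own orientation in Asns. Its first base is 193 bases upstream of the annotated start in Chac1 and 23 bases upstream in Asns, and it is base 15 of the transcribed sequence in Trib3. Among 108 further genes of the programme with a window (listed by pathway role, described after the 10 genes), 17 held the element, or 15.7%, against 4.51% of all symbols. A match describes the letters in the window and does not show that the factor is bound.

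The libraries carried the markers of the labelled tissue. The summed level of 12 choroid plexus epithelium markers, Ttr and Otx2 among them, was 19169 to 20490.1 CPM (counts scaled to library size) after red blood cells and 19379 to 24311 CPM after saline, and 1 of the 12 had a log2 fold change above 0. Macrophage markers (12 genes) summed to 382 to 542 CPM after red blood cells and 242 to 324 CPM after saline, so the groups did not overlap. All 12 had a log2 fold change above 0, and 1 passed the edgeR test, where 0.0605% of all genes tested did. Erythroid markers (12 genes, globins included) summed to 2295 to 2890.0 CPM after red blood cells and 2194 to 3345 CPM after saline. Neutrophil and monocyte markers (12 genes, Ly6g at 0 in every library) reached 104 CPM in red blood cells 2 and stayed between 5.63 and 22.9 CPM elsewhere. Mesenchyme markers (8 genes) summed to 2849.9 CPM in red blood cells 3 and to 1476 to 1922 CPM elsewhere, and endothelium markers (8 genes) to 1279.6 CPM in red blood cells 3 and to 855 to 1097 CPM elsewhere. Hepatocyte genes other than Ttr (7 genes) summed to 2.14 to 10.2 CPM after red blood cells, to 1.93 to 19.1 CPM in saline 1 to 3, and to 1441 CPM in saline 4. Saline 4 also had the highest epithelium sum, 24311 CPM, which includes Ttr, a gene of hepatocytes as well. The part of hepatocytes in that sum was not tested. Total counts ran from 5479812 to 7944404 after red blood cells and from 4393860 to 8386928 after saline. In bulk tissue, fewer cells of a type and less RNA per cell cannot be told apart.

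Levels between genes can be compared only per length, and in TPM, counts scaled to the gene's exon length and library, the 10 genes spanned a wide range. The exon length of a gene need not be that of its expressed transcript, so the order of levels is approximate. Phgdh was the highest, with a mean of 351 TPM over the 7 libraries (308 to 382 TPM), followed by Atf4 at 153 TPM (131 to 171 TPM). Sesn2 (27.5 TPM) and Psat1 (24.9 TPM) came next with overlapping ranges. Asns (12.2 TPM), Ddit3 (9.68 TPM) and Mthfd2 (7.27 TPM) formed a chain in which each overlapped the next. Trib3 stood apart at 3.54 TPM, and Aldh1l2 (0.882 TPM) and Chac1 (0.819 TPM) overlapped at the bottom. The serine synthesis enzyme gene Phgdh was thus abundant in both groups. Chac1, Trib3 and Ddit3, which are strongly induced where the pathway is active, had far lower levels in both, as did Mthfd2 and Aldh1l2. These levels were not compared with a tissue of known pathway activity.

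Atf4 encodes the transcription factor at the centre of the pathway. On GRCm39 it spans 80139385 to 80141746 of chromosome 15, plus strand. Its level was 87.9, 101 and 86.5 CPM in red blood cells 1 to 3 and 88.2, 85.5, 84.7 and 77.6 CPM in saline 1 to 4. Red blood cells 2 was the highest library and saline 4 the lowest, and the groups overlapped, since red blood cells 1 and 3 lay below saline 1. The means were 92.0 ± 8.27 CPM after red blood cells and 84.0 ± 4.53 CPM after saline (SD, n = 3 and n = 4). Atf4 thus had a log2 fold change of 0.13 ± 0.08 (SE), a fold of 1.09 with an interval of 0.966 to 1.24 (edgeR adjusted p = 0.698). Without red blood cells 2 the log2 fold change was 0.05.

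**Figure D1:**
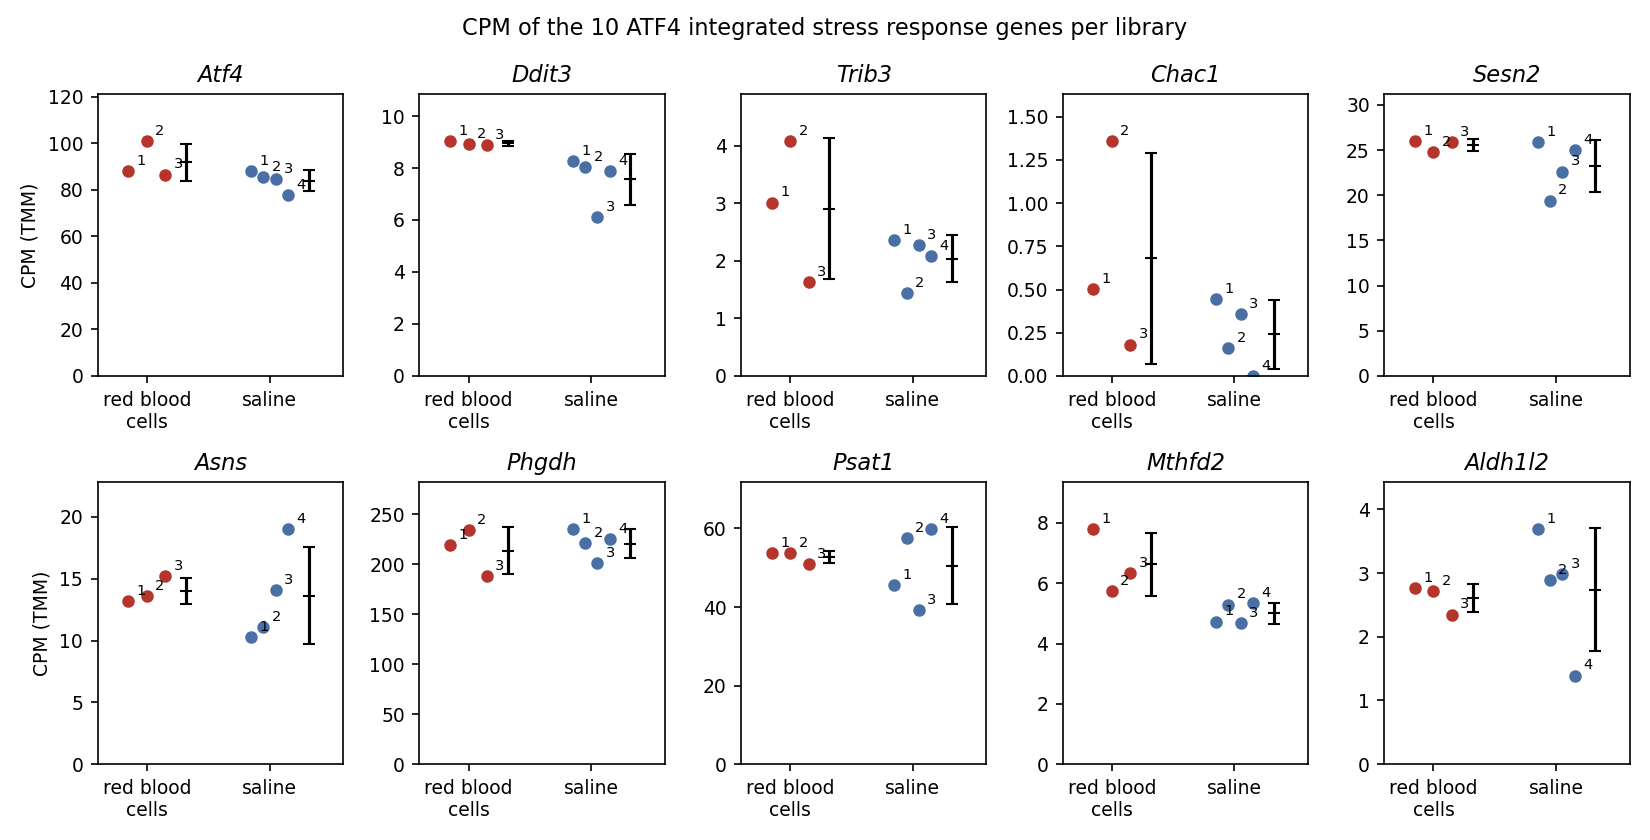
CPM (counts scaled to TMM library sizes) of each of the 10 genes, on its own axis from 0, in red blood cell libraries 1 to 3 (red points) and saline libraries 1 to 4 (blue points), with the mean and SD in black. Ddit3 and Mthfd2 have every red blood cell point above every saline point, and the groups overlap for the other 8 genes.

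Ddit3, which encodes CHOP, the factor that turns a prolonged response towards cell death, differed by little and with the groups apart. It spans 127126662 to 127132160 of chromosome 10, plus strand. The level was 9.04, 8.92 and 8.87 CPM in red blood cells 1 to 3 and 8.27, 8.02, 6.10 and 7.87 CPM in saline 1 to 4. The red blood cell libraries agreed closely with each other and lay above every saline library, of which saline 3 was the lowest. For Ddit3 the log2 fold change was 0.25 ± 0.18 (SE), with an interval of -0.14 to 0.63 (edgeR adjusted p = 0.742). Without saline 3 it was 0.16. Ddit3 shares 77 bases at its start with Mbd6 and 71 bases at its end with Mars1, both on the opposite strand. No source used here gives the strand setting of the counting, so a few reads in these stretches could be wrongly added to Ddit3 or lost from it.

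Trib3 encodes a pseudokinase that is induced by ATF4 and CHOP and in turn restrains ATF4 activity. It spans 152179345 to 152185980 of chromosome 2, minus strand. Raw counts were 24, 27 and 9 in red blood cells 1 to 3 and 16, 9, 19 and 9 in saline 1 to 4, which is 3.01, 4.08 and 1.63 CPM after red blood cells and 2.36, 1.44, 2.27 and 2.08 CPM after saline. Red blood cells 1 and 2 lay above all saline libraries and red blood cells 3 below 3 of the 4. Trib3 had the largest log2 fold change among the 9 tested genes, at 0.52 ± 0.35 (SE), with the widest interval on the high side, -0.26 to 1.29 (edgeR adjusted p = 0.732). It was 0.21 without red blood cells 2 and 0.78 without red blood cells 3, so single libraries set its size.

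Chac1 encodes an enzyme that degrades glutathione and is a downstream target of ATF4 and CHOP. It spans 119181723 to 119184807 of chromosome 2, plus strand, and carries the upstream element shown above. It was barely detected, with 4, 9 and 1 counts in red blood cells 1 to 3 and 3, 1, 3 and 0 counts in saline 1 to 4. Red blood cells 2 had the most counts, but red blood cells 3 had as few as saline 2. The sums were 14 counts after red blood cells and 7 after saline, so the gene did not pass the count filter of the main edgeR test. Without that filter Chac1 had a log2 fold change of 1.33 (edgeR adjusted p = 0.783), and in DESeq2 it had 1.43 ± 1.23 (SE, adjusted p = 1), so a difference was not detectable at this depth. These are larger values than those of the other 9 genes in the same fits, on far fewer counts. A count of 3 corresponds to 0.377 to 0.543 CPM in the red blood cell libraries and to 0.359 to 0.695 CPM in the saline libraries.

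Sesn2 encodes sestrin 2, which restrains the growth kinase complex mTORC1 when amino acids are short. It spans 132220115 to 132237767 of chromosome 4, minus strand. The level was 26.0, 24.8 and 25.9 CPM in red blood cells 1 to 3 and 25.9, 19.4, 22.6 and 25.0 CPM in saline 1 to 4. Saline 1 and saline 4 lay among the red blood cell libraries, and saline 2 was the lowest. Sesn2 had a log2 fold change of 0.14 ± 0.12 (SE), a fold of 1.1 with an interval of 0.92 to 1.32 (edgeR adjusted p = 0.804). Without saline 2 its log2 fold change was 0.06.

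Asns encodes asparagine synthetase, whose promoter element is the classical site of the amino acid response. It spans 7675169 to 7693209 of chromosome 6, minus strand. The level was 13.2, 13.6 and 15.2 CPM in red blood cells 1 to 3 and 10.3, 11.1, 14.1 and 19.0 CPM in saline 1 to 4. Saline 4 was the highest of all 7 libraries, and saline 1 and 2 were the lowest. Asns had a log2 fold change of 0.05 ± 0.20 (SE), a fold of 1.04 with an interval of 0.765 to 1.4 (edgeR adjusted p = 0.973). Without saline 4, the library with 1441 CPM of hepatocyte genes, it was 0.24, and the part of those cells in the Asns level was not tested.

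**Figure D2:**
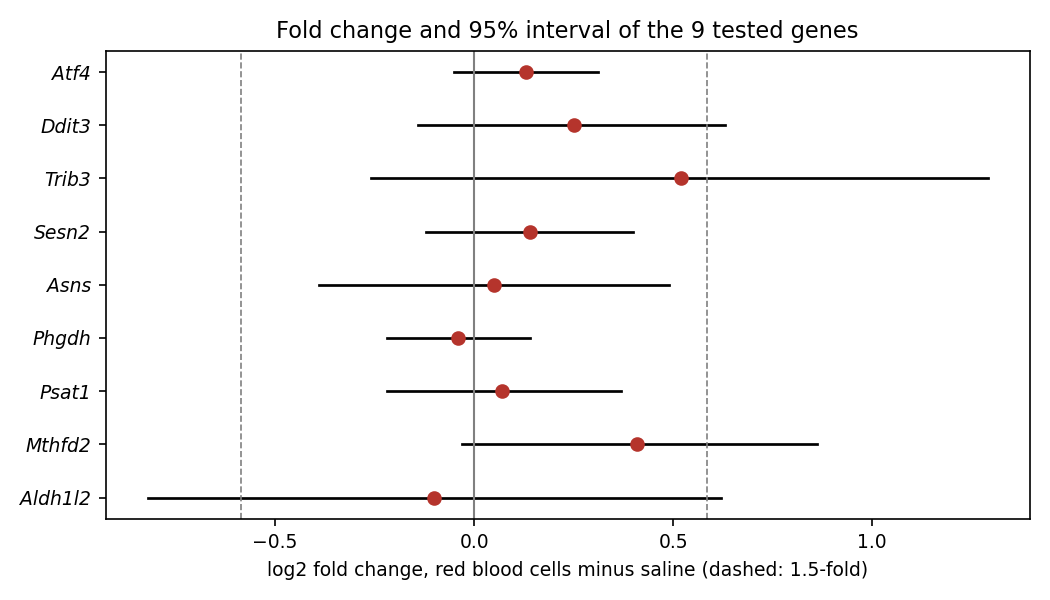
Log2 fold change of red blood cells minus saline (points) with the 95% interval (lines) for the 9 tested genes, with dashed lines at a 1.5-fold change. Every interval crosses 0, and those of Trib3 (-0.26 to 1.29) and Aldh1l2 (-0.82 to 0.62) are the widest.

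The group means of the serine synthesis enzyme genes differed by less than the SD of the saline libraries. Phgdh, the first enzyme of serine synthesis (98220487 to 98247285 of chromosome 3, minus strand), had 219, 234 and 188 CPM in red blood cells 1 to 3 and 235, 221, 201 and 225 CPM in saline 1 to 4. Red blood cells 3 was the lowest library and saline 1 the highest, with the others mixed. Its log2 fold change was -0.04 ± 0.08 (SE), a fold of 0.971 with an interval of 0.857 to 1.1 (edgeR adjusted p = 0.940). Psat1, the transaminase of the next step (15882487 to 15902423 of chromosome 19, minus strand), had 53.7, 53.7 and 50.9 CPM in red blood cells 1 to 3 and 45.5, 57.6, 39.2 and 59.8 CPM in saline 1 to 4. The red blood cell libraries lay inside the range of the saline libraries. The log2 fold change of Psat1 was 0.07 ± 0.13 (SE), with an interval of -0.22 to 0.37 (edgeR adjusted p = 0.933).

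The mitochondrial folate enzymes were scarcer, and their fold changes had opposite signs, with neither past the test. Mthfd2, the dehydrogenase and cyclohydrolase that embryonic and proliferating cells use for mitochondrial one-carbon units (83282686 to 83302926 of chromosome 6, minus strand), had 7.79, 5.75 and 6.34 CPM in red blood cells 1 to 3. In saline 1 to 4 it had 4.73, 5.29, 4.67 and 5.33 CPM. Every red blood cell library lay above every saline library, and red blood cells 1 was the highest. The means were 6.62 ± 1.05 CPM after red blood cells and 5.0 ± 0.356 CPM after saline (SD, n = 3 and n = 4). Mthfd2 had a log2 fold change of 0.41 ± 0.21 (SE), a fold of 1.33 with an interval of 0.977 to 1.82 (edgeR adjusted p = 0.574, the lowest of the 9), and 0.28 without red blood cells 1. Macrophage markers were likewise higher in every red blood cell library, at 382 to 542 CPM against 242 to 324 CPM after saline, and their part in the Mthfd2 difference was not tested.

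Aldh1l2, which encodes the mitochondrial enzyme that oxidises 10-formyltetrahydrofolate (83320386 to 83370008 of chromosome 10, minus strand), had 22, 18 and 13 counts in red blood cells 1 to 3 and 25, 18, 25 and 6 counts in saline 1 to 4. That is 2.76, 2.72 and 2.35 CPM after red blood cells and 3.69, 2.89, 2.99 and 1.39 CPM after saline. Saline libraries held both the highest and the lowest value. The log2 fold change was -0.10 ± 0.33 (SE), with an interval of -0.82 to 0.62 (edgeR adjusted p = 0.963).

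**Figure D3:**
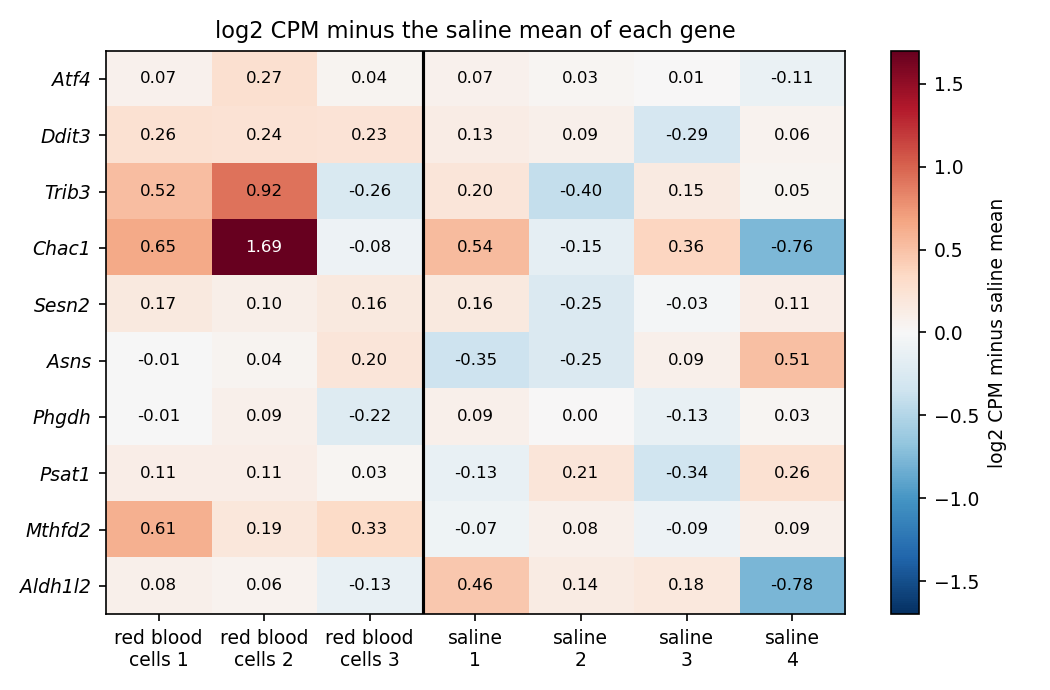
Log2 CPM of each gene in each library minus the mean of that gene in the saline libraries, red blood cell libraries left of the line and saline libraries right of it. Red blood cells 2 is above the saline mean for 10 of 10 genes and red blood cells 3 for 6 of 10, and the strongest colours belong to Chac1 and Trib3, the genes with few counts.

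Read across libraries, the 10 genes had their highest values in different libraries. Relative to the saline mean of each gene in log2 CPM, 8, 10 and 6 of the 10 genes were higher in red blood cells 1, 2 and 3, and 7, 6, 5 and 7 were higher in saline 1 to 4. The saline mean includes each saline library itself, so the saline counts are not like those after red blood cells. The median of these differences was 0.14, 0.15 and 0.04 in red blood cells 1 to 3 and 0.11, 0.02, -0.01 and 0.05 in saline 1 to 4. Atf4, Trib3 and Chac1 were highest in red blood cells 2, and Ddit3, Sesn2 and Mthfd2 in red blood cells 1. Asns and Psat1 were highest in saline 4 and Phgdh and Aldh1l2 in saline 1. The groups did not overlap for 2 of the 9 tested genes, Ddit3 and Mthfd2, both higher after red blood cells, where 9.59% of all genes tested did not overlap and 4.96% were higher without overlap. The log2 fold change was above 0 for 7 of the 9, with a median of 0.13, against 49.9% of all genes tested and a median of 0.00.

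Other genes whose values moved like those of Atf4 and Asns over the 7 libraries were found by the root mean square difference of log2 CPM, each gene centred on its own mean. For Atf4 the closest were Ccdc137, Ric8a, Nfkb1, Desi2 and Ppm1f, at 0.0230 to 0.0381, where the median gene lay at 0.180 and 965 of 13520 genes lay within 0.1. For Asns the closest were Lin9, Gng12, Spc25, Zfp641 and Htatip2, at 0.102 to 0.121, where the median gene lay at 0.305. A gene with the same value in every library would lie at 0.106 from Atf4 and at 0.263 from Asns. The measure thus depends on the size of the spread, and genes with few counts and a wide spread can hardly rank close. None of the 10 genes was among the closest of either, which for this reason cannot show whether they moved together. All these values come from the same 7 libraries and share their depth.

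All 4 kinases that start the pathway were detected in every library, and the groups did not overlap for 1 of the 4, where 9.59% of all genes tested did not overlap. That gene did not pass the main test. Eif2ak2 encodes PKR, the sensor of double-stranded RNA that interferon induces. It had 82.4, 111 and 64.1 CPM in red blood cells 1 to 3 and 55.6, 52.3, 51.8 and 59.3 CPM in saline 1 to 4, so that the groups did not overlap. The log2 fold change was 0.66 ± 0.16 (SE, edgeR adjusted p = 0.179), and DESeq2 called the gene (adjusted p = 0.00933), where DESeq2 called 1.39% of the genes it tested. Without red blood cells 3 edgeR called it too (log2 fold change 0.83, adjusted p = 0.0046), in a fit where 283 genes passed, against 9 in the main fit. Without red blood cells 2 the log2 fold change of Eif2ak2 was 0.43. The adjusted p of Eif2ak2 ran from 0.0046 to 0.421 over the alternatives.

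The other 3 kinases had values nearer to each other. Eif2ak1, which encodes the heme-regulated kinase HRI, had 40.1, 43.0 and 40.7 CPM in red blood cells 1 to 3 and 40.3, 39.1, 42.6 and 39.8 CPM in saline 1 to 4. These values overlapped throughout (log2 fold change 0.03 ± 0.08, SE, edgeR adjusted p = 0.961). Eif2ak3, which encodes the endoplasmic reticulum kinase PERK, had 34.7, 36.6 and 30.2 CPM after red blood cells and 31.6, 28.9, 28.5 and 26.9 CPM after saline (log2 fold change 0.22 ± 0.10, edgeR adjusted p = 0.531). Eif2ak4, which encodes the amino acid sensor GCN2, had a change of -0.06 ± 0.10 on the same scale (edgeR adjusted p = 0.922). Eif2ak1 and Eif2ak3 are named to complete the 4 kinases, after their values were seen.

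The rest of the programme was read from 11 lists, the kinases included, which hold 138 further genes. Of these, 134 could be tested and 0 passed over all genes in edgeR in either direction. An unadjusted p below 0.05 was found for 15 of the 134, or 11.2%, against 9.54% of all genes tested, with 14 higher (10.4%, against 5.22% of all genes) and 1 lower (4.32% of all genes). Single libraries moved these counts in both directions. Without red blood cells 2 they were 7 higher and 2 lower (6.72%, against 7.35% of all genes in that fit). Without red blood cells 3 they were 23 higher and 7 lower (22.4%, against 13.4%). Without saline 2 they were 9 and 1 (7.46%, against 8.17%), and without both red blood cells 2 and saline 4 they were 14 and 2 (12.0%, against 7.51%). The groups did not overlap for 12 of the 134 (8.96%, against 9.59% of all genes tested). Of these 12, 10 were higher and 2 lower after red blood cells, where 4.96% of all genes tested were higher and 4.63% lower without overlap. The log2 fold change was above 0 for 90 of the 134 (67.2%, against 49.9% of all genes tested), with a median of 0.06. Without red blood cells 2 this share was 56.7%, against 49.9%. DESeq2 called 2 of the genes, Eif2ak2 and Cebpd, where it called 1.39% of all genes it tested, and limma-voom called 0.

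Among 11 tested partners of ATF4 and related leucine zipper factors, 0 passed, 9 had a log2 fold change above 0 and the median was 0.25. The most abundant were Nfe2l1, at 0.05 ± 0.06 (SE), and Nfe2l2, which encodes the antioxidant factor NRF2, at 0.25 ± 0.09 (edgeR adjusted p = 0.306). The inducible members had scattered values, and those named next were chosen after their values were seen. Atf3, a stress factor that ATF4 induces, had 7.53, 4.08 and 2.53 CPM in red blood cells 1 to 3 and 2.22, 0.963, 1.32 and 3.01 CPM in saline 1 to 4. Red blood cells 3 lay below saline 4, and the log2 fold change was 1.41 ± 0.44 (SE, edgeR adjusted p = 0.254). Cebpd, an acute-phase factor, had 9.54, 31.0 and 4.35 CPM after red blood cells and 4.73, 2.89, 3.47 and 4.17 CPM after saline. Red blood cells 2, which also had 104 CPM of neutrophil and monocyte markers, was far above the rest, and the part of those cells was not tested. The log2 fold change of Cebpd was 1.98 ± 0.66 (SE, edgeR adjusted p = 0.379, DESeq2 adjusted p = 0.0159). Nupr1, a stress-induced chromatin protein, was highest in red blood cells 3 at 6.16 CPM, with 0.802 to 1.82 CPM elsewhere. Cebpg, the constitutive partner of ATF4, had 0.06 ± 0.09 (edgeR adjusted p = 0.918).

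**Figure D4:**
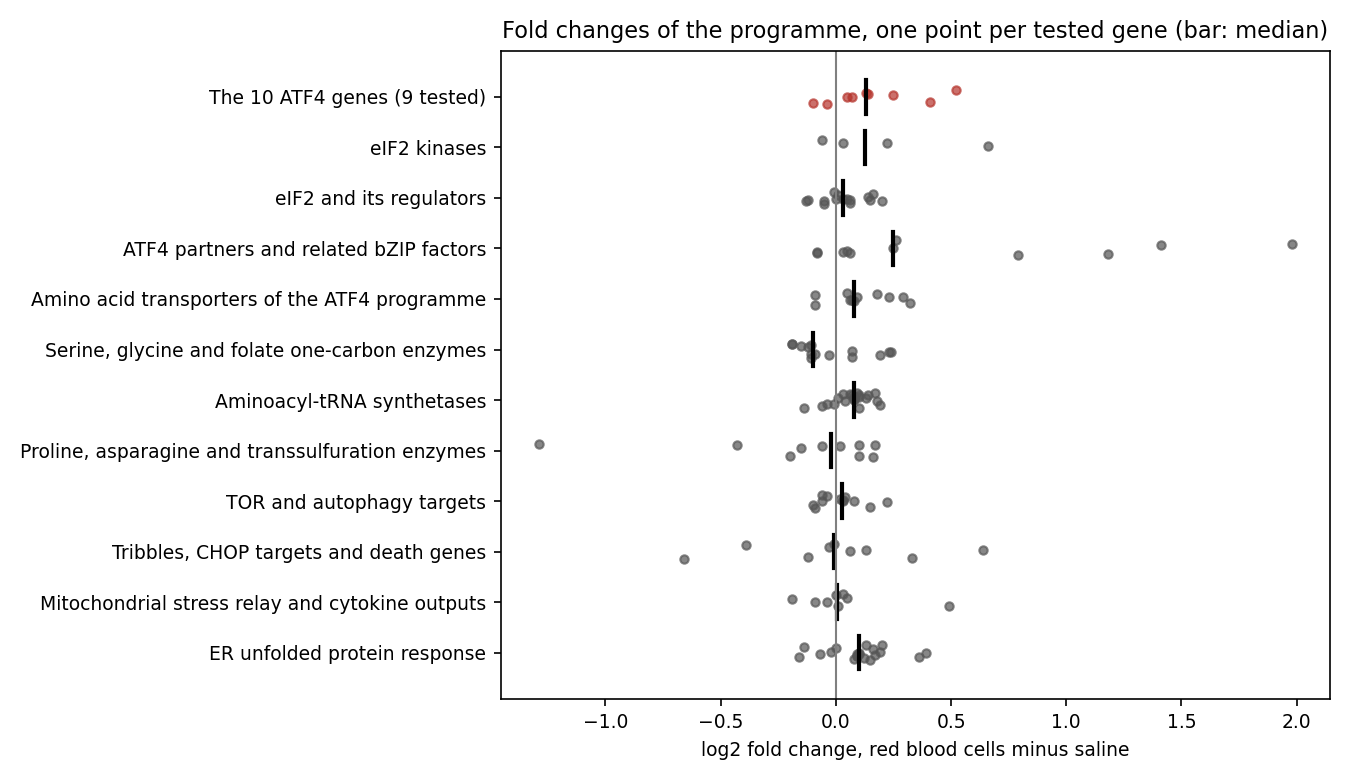
Log2 fold change of red blood cells minus saline, one point per tested gene and a bar at the median, for the 9 tested members of the 10 ATF4 genes (top) and for 11 lists of the programme. The medians lie between -0.10 (serine, glycine and folate enzymes) and 0.25 (ATF4 partners), and 0 points passed the edgeR test.

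Amino acid supply genes, the main output of ATF4, had small differences. Of 11 transporters 0 passed, with 9 above 0 and a median log2 fold change of 0.08. Slc7a11, the cystine carrier subunit, had 432, 339 and 455 CPM in red blood cells 1 to 3 and 293, 329, 344 and 347 CPM in saline 1 to 4, with red blood cells 2 inside the saline range. The log2 fold change of Slc7a11 was 0.32 ± 0.10 (SE), a fold of 1.25 with an interval of 1.07 to 1.45 (edgeR adjusted p = 0.260). Its heavy chain Slc3a2 had 0.07 ± 0.07 (SE). Of 21 genes for tRNA charging and export, 0 passed, 17 were above 0 and the range was -0.14 to 0.19, with a median of 0.08. Xpot, the exporter of tRNA from the nucleus, had 0.18 ± 0.08 (edgeR adjusted p = 0.479), and Eprs, the synthetase for glutamate and proline, -0.04 ± 0.07.

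Genes next to Phgdh, Psat1 and Mthfd2 in serine, glycine and folate metabolism had a median of -0.10, with 5 of 14 above 0, 0 past the test and a range of -0.19 to 0.24. The glycine cleavage gene Gldc had -0.12 ± 0.09 (SE). Of 10 proline, asparagine and transsulfuration genes 0 passed, 5 were above 0 and the median was -0.02. Glul, glutamine synthetase, had 0.10 ± 0.18 and Gpt2, an alanine transaminase, -0.15 ± 0.08. Cbs, the first transsulfuration enzyme, named after its value was seen, had 1.26, 1.97 and 1.81 CPM in red blood cells 1 to 3 and 3.40, 2.89, 2.87 and 7.87 CPM in saline 1 to 4. The groups did not overlap (log2 fold change -1.29 ± 0.42, edgeR adjusted p = 0.277), and 4.63% of all genes tested were lower without overlap. Its highest value was in saline 4, the library with the hepatocyte genes, whose part was not tested.

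Genes that act around eIF2 or after CHOP had medians near 0. Of 15 genes of eIF2 and its regulators 0 passed, 10 were above 0 and the range was -0.13 to 0.20. The PERK inhibitor gene Dnajc3 had 0.06 ± 0.10 (SE) and the constitutive eIF2 phosphatase subunit gene Ppp1r15b 0.00 ± 0.06. Of 9 Tribbles, CHOP target and death genes 0 passed, 4 were above 0 and the range was -0.66 to 0.64. Ppp1r15a, the inducible phosphatase subunit that ends the response, had -0.12 ± 0.09 and Ero1a, an oxidase of the endoplasmic reticulum, -0.01 ± 0.11. Bbc3, which encodes the death protein PUMA and is named after its value was seen, had 9.29, 13.3 and 9.23 CPM after red blood cells and 6.95, 6.26, 6.34 and 7.87 CPM after saline. The groups did not overlap for Bbc3, at 0.64 ± 0.19 (edgeR adjusted p = 0.234), and 4.96% of all genes tested were higher without overlap.

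Of 12 growth control and autophagy genes 0 passed, with 7 above 0 and a median of 0.02. Vldlr, a lipoprotein receptor that ATF4 can induce, had -0.06 ± 0.08 (SE), and Sqstm1, the autophagy receptor p62, 0.22 ± 0.07 (edgeR adjusted p = 0.286). Of 8 genes of the mitochondrial stress relay and its secreted outputs 0 passed, with 5 above 0 and a median of 0.01. The mitochondrial chaperone genes Hspd1 and Hspa9 had 0.05 ± 0.10 and 0.01 ± 0.07, and Fgf21 had 0 counts in all 7 libraries. Of 20 genes of the endoplasmic reticulum unfolded protein response 0 passed, 16 were above 0 and the median was 0.10. The chaperone gene Calr had 0.20 ± 0.08 (edgeR adjusted p = 0.434). Edem1, a factor of protein disposal named after its value was seen, had 50.6, 58.4 and 49.6 CPM after red blood cells and 42.7, 36.6, 41.7 and 40.3 CPM after saline. The groups did not overlap for Edem1, where 4.96% of all genes tested were higher without overlap. Its adjusted p was the lowest of the 134 genes in edgeR, at 0.137.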

How the data were processed

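The deposited table gives raw read counts per gene in 7 libraries beside each gene's exon coordinates and length, per the file headers. The tools cutadapt 2.5, STAR 2.6.1b and featureCounts 2.0.6 and the build GRCm39 come from the submitters' processing notes. No source used here states the annotation, strandedness or multi-mapping options. Library preparation was directional with poly(A) enrichment, per the labels' protocols.

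The lines of 6 genes are broken, and these genes were left out. The 6 lines with no gene name hold 0.107% of all counts. Counts were tested with edgeR 4.0.16 (robust quasi-likelihood F test, two-sided, TMM, filterByExpr, R 4.3.3) over 14869 genes, with Benjamini-Hochberg adjustment and a threshold of 0.05. No block was used. Standard errors come from the F statistic, and 95% intervals use its degrees of freedom. CPM of single genes use TMM library sizes, marker sums use total counts, and log2 CPM use a prior count of 2. TPM were computed from the counts and the deposited lengths. The common biological coefficient of variation was 13.7%. Alternatives were DESeq2 1.42.0, limma-voom (limma 3.58.1), other normalizations and filters, a fit without robust estimation, a replicate block, and each library left out. Tests were tried on simulated data. Figures were drawn with matplotlib 3.10.9.

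The members and lists were chosen with earlier results of these data known. All 10 members are named, with list genes past the threshold or otherwise the 2 most abundant, and the 5 genes closest to Atf4 and to Asns. One list gene that this rule names is not reported here. Of 219 list entries, 16 matched the table through RefSeq synonyms and the others by symbol. Promoter windows are RefSeq's on GRCm38.p6 and were not converted.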

Additional observations from a re-analysis of the deposited data

How the results depend on the processing

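The number of ATF4 genes past the threshold was 0 under all 18 alternatives, and no member's adjusted p fell below 0.349. Over all genes, 9 passed in the main edgeR fit, against 280 with DESeq2, 136 without a count filter, 16 without robust estimation, 2 with the replicate block (also with saline 4 left out), 40 without both red blood cells 2 and saline 4, and 1 to 283 when one library was left out. The fit without both libraries and the block fit with saline 4 left out were added after seeing the data. Deviations of same-numbered libraries from their group means had r = -0.008, -0.173 and -0.173 over genes. Those of differently numbered libraries ran from -0.213 to 0.261. With so few libraries these values cannot show whether the numbers pair them, and the labels do not say. In the replicate block fit Atf4 had a log2 fold change of 0.09. The signs of Atf4, Ddit3, Trib3, Sesn2 and Mthfd2 were positive under all 18 alternatives. Asns turned to -0.006 without red blood cells 3, -0.065 without saline 1 and -0.039 without saline 2, Psat1 to -0.029 without saline 3, Phgdh to 0.041 without red blood cells 3 and Aldh1l2 to 0.061 without saline 1. Leaving out one library, the values ran from 0.053 to 0.171 for Atf4, 0.156 to 0.294 for Ddit3, 0.212 to 0.779 for Trib3, 0.059 to 0.195 for Sesn2, 0.279 to 0.51 for Mthfd2, -0.065 to 0.241 for Asns, -0.029 to 0.166 for Psat1, -0.11 to 0.041 for Phgdh and -0.272 to 0.061 for Aldh1l2. The cause was not tested. With upper quartile normalization the median log2 fold change of all genes was -0.017, the largest shift among the normalizations. Depth limits Chac1, Trib3 and Aldh1l2, with mean counts of 3.00, 16.1 and 18.1.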
